A study of Mus musculus with 3 samples.

Results

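The 6 genes followed here are used as marks of alternative activation of mouse macrophages and were measured in dorsal skin: Retnla, Chil3, Ear2, Arg1, Clec4b1 and Mgl2. They are 6 of the 32285 genes in the count matrices and were picked by name because Retnla and Ear2 were lower and Chil3 higher after ultraviolet B (UVB) in these same libraries. Their differences are therefore given as a description, and no test was made of them. The 3 libraries held skin cells enriched for CD45+ leukocytes with magnetic beads, and each library stood for 1 group. All groups were C57Bl/6 males of 8 weeks whose hair follicles were in telogen, the resting phase. WT_Ctrl was wild type without UVB. WT_UV was wild type after 3 UVB exposures, given once every 2 days, with skin collected on the fifth day. RP_UV received the same exposures and carried Rosa26-rtTA and Tre-Ptgs2, through which doxycycline switches on rat Cox-2, the enzyme that makes the precursor of prostaglandin E2, with rtTA expressed from a locus that is active in most cell types. With 1 library per group there is no replicate check, no p-value was computed, and every interval below is a 95% interval that covers counting error only.

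Alternative activation is the state that macrophages take on under interleukin-4 and interleukin-13, which act through the receptor chain Il4ra and the transcription factor Stat6, and it is known from helminth infection, allergy and wound repair. Its marks include the secreted proteins Retnla (resistin-like alpha) and Chil3 (Ym1, a chitinase-like lectin), the enzyme Arg1 (arginase 1, which splits arginine into ornithine and urea), and the sugar-binding surface receptor Mgl2 (CD301b). Ear2 is a ribonuclease of the eosinophil-associated family and Clec4b1 a C-type lectin receptor, and both are also used to mark myeloid cells. In healthy skin such genes are known from resident dermal macrophages and from Mgl2+ dermal dendritic cells, and Chil3 is also known from monocytes and neutrophils.

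The promoters of the 3 genes whose values chose the set are shown so that the sequences around their annotated start sites can be compared. Each sequence runs from 250 bases before to 50 bases after the RefSeq start in GRCm38.p6, 5′ to 3′ on the strand of the gene, and capitals mark matches to 3 motifs searched on both strands. These were the box known from core promoters, TATAAA, a STAT6-type motif, TTCNNNNGAA, and a C/EBP-type motif, TTGCNNAA. Retnla (ENSMUSG00000061100) lies at chr16:48842609-48844461, and its promoter window is chr16:48842359-48842658 on the plus strand. Ear2 (ENSMUSG00000072596) lies at chr14:44102654-44103531, with the window chr14:44102404-44102703 on the plus strand. Chil3 (ENSMUSG00000040809) lies at chr3:106147554-106167564, with the window chr3:106167515-106167814 on the minus strand.
Retnla: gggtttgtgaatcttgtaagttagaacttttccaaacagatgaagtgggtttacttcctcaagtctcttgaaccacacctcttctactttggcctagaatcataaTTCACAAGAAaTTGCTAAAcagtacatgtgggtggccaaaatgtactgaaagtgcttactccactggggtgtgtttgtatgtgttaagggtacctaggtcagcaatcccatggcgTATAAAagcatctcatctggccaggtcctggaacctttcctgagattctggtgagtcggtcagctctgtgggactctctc
Ear2: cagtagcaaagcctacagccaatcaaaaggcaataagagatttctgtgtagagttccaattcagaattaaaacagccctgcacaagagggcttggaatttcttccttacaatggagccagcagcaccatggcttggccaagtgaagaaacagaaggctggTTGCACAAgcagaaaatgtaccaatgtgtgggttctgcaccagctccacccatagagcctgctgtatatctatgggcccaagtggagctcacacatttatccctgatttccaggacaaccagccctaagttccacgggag
Chil3: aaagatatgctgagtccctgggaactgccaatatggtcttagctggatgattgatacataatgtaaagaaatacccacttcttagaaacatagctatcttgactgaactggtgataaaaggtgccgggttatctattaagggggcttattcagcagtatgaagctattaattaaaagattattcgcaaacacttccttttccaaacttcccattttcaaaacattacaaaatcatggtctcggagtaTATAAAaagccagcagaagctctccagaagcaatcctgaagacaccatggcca

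The Retnla window held all 3 motifs, TTCACAAGAA from 145, TTGCTAAA from 134 and TATAAA from 30 bases before the start. The Ear2 window held only TTGCACAA, from 90 bases before, and the Chil3 window only TATAAA, from 3 bases before the annotated start. The windows of Clec4b1 (ENSMUSG00000030147, gene at chr6:123049962-123071555) and Mgl2 (ENSMUSG00000040950, gene at chr11:70130125-70137542) held none of these letters. The Mgl2 window, chr11:70130107-70130406, lay mostly inside the gene span given here, because its RefSeq start lies within that span. The sequence further upstream of the Mgl2 gene span was not searched. No matches overlapped. Among all 32851 RefSeq promoter windows of this length, 13.6% held the TATA motif, 6.95% the STAT6-type and 10.8% the C/EBP-type motif. A match is a description of the letters and not a measured binding site. Arg1 (ENSMUSG00000019987, gene at chr10:24915207-24927470) was named without a promoter, so 5 of the 6 genes were matched.

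After filtering, WT_Ctrl held 5309 cells, WT_UV 5225 and RP_UV 6070, with 25795684, 64556621 and 29128981 unique molecular identifiers (UMIs, each a counted transcript molecule). Levels are given as UPM, the UMIs of a gene in 1000000 UMIs, summed over the cells of a class, and values without a library name follow the order WT_Ctrl, WT_UV, RP_UV. WT_UV was sequenced more deeply, with a median of 10557 UMIs per cell against 4246 in WT_Ctrl and 3774 in RP_UV. The sample IDs in the labels carry another run code and date for it than for the other 2 libraries, so in comparisons with WT_UV the sequencing run and the group cannot be told apart. RP_UV over WT_Ctrl lay within 1 run but differed in both UVB and genotype. Pairs of libraries shared 7 to 9 cell barcodes. Summed over all kept cells, Ptgs2 stood at 14.4 UPM in WT_Ctrl, 117 in WT_UV and 486 in RP_UV. This sum also depends on the number of cells of each class. Ptgs2 was 5.54, 7.21 and 588 UPM in keratinocytes and 1.39, 47.1 and 177 in macrophages.

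Macrophages were clusters with the complement, Adgre1 and Csf1r panel, of which all 10 markers were detected in each library, and numbered 1695, 1912 and 2118 cells in the 3 libraries. Of these, 586, 496 and 746 lay in 2 clusters that carried Lyve1 and its companions, the profile of macrophages along vessels. There the score of this panel led the macrophage score by at least 0.5. The other 1109, 1416 and 1372 lay in 6 clusters without such a lead and are called macrophages without Lyve1. The name does not mean that the profile was absent. Cluster 2 had a Lyve1 panel score of 4.04 against a macrophage score of 3.81, and clusters 1 and 21 had Lyve1 panel scores of 3.48 and 3.18. Monocytes (101, 272 and 104 cells) formed 1 cluster with Ly6c2, Plac8 and Ccr2, whose monocyte score of 2.56 lay close to its macrophage score of 2.23, and dendritic cells (620, 611 and 233) were mostly the Cd209a-positive type 2. The 6 genes were kept out of the features used for clustering. T cells and keratinocytes, which should lack these genes apart from Arg1, served as the background. Whether their UMIs came from free RNA or from cells counted together (doublets) was not tested. WT_Ctrl keratinocytes held 675 Retnla UMIs in 163 cells, and WT_UV keratinocytes 313 Ear2 UMIs in 19 cells. Keratinocytes remained in number despite the enrichment for CD45+ cells, at 1241, 541 and 1149.

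Among macrophages, Retnla was highest in those with Lyve1, and it was lower in WT_UV and lowest in RP_UV in both macrophage classes. In macrophages with Lyve1, WT_Ctrl had 13682 UPM (13520 to 13846), WT_UV 3966 (3912 to 4020) and RP_UV 325 (306 to 345). In macrophages without Lyve1 it stood at 1714 (1676 to 1753), 302 (294 to 310) and 32.5 (28.6 to 36.7). The order of the libraries was the same in both classes and no counting intervals overlapped. WT_UV was 3.45-fold lower than WT_Ctrl with Lyve1 and 5.67-fold lower without it. RP_UV was a further 12.2-fold and 9.31-fold lower than WT_UV. Over both classes together the fold of RP_UV to WT_Ctrl was 0.0221 (0.0209 to 0.0233), the lowest of 7975 genes with enough UMIs. RP_UV to WT_UV was 0.106 (0.101 to 0.112), second from the lowest of 7920.

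Fewer macrophages carried a Retnla UMI, and those that did carried fewer. With every cell thinned to 2000 UMIs, the share of macrophages with Lyve1 that had at least 1 UMI was 81.4% (77.4 to 84.9), 68.8% (64.5 to 72.8) and 20.8% (17.9 to 24.1). Without thinning, the shares were 82.9%, 80.0% and 27.6%. Among positive cells of this class the unthinned median was 40 Retnla UMIs in WT_Ctrl, 24 in the more deeply sequenced WT_UV and 3 in RP_UV. In macrophages without Lyve1 the thinned shares were 28.4%, 12.3% and 1.91%, and the unthinned 35.6%, 24.4% and 3.35%. T cells showed thinned shares of 10.4%, 3.71% and 0 of 48 cells, and keratinocytes 5.45%, 3.08% and 0.679%, which is the background against which these are read. The RP_UV share in macrophages without Lyve1 was near this background, and of its 259 UMIs 46.3% came from 1 cell with 120 UMIs. The median UMIs per cell were 3765, 11030.5 and 4708 in macrophages, 2450.5, 5935 and 2012.5 in T cells and 6158, 9697 and 6055 in keratinocytes. The plot of thinned shares sets these classes side by side.

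**Figure D1:**
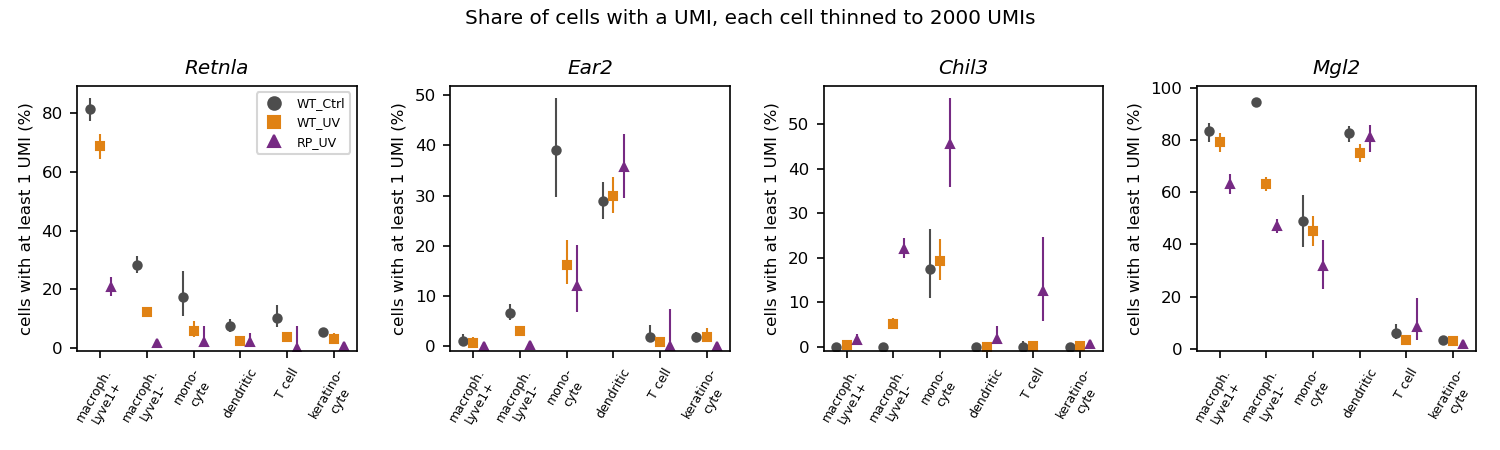
Share of cells with at least 1 UMI of Retnla, Ear2, Chil3 and Mgl2 after every cell was thinned to 2000 UMIs, in percent, by cell class; grey circles are WT_Ctrl, orange squares WT_UV and purple triangles RP_UV, with 95% Wilson intervals. For Retnla in macrophages with Lyve1 the points step from 81.4% to 68.8% to 20.8%, while Chil3 in macrophages without Lyve1 goes from 0% to 5.09% to 22.1%.

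The same order was found inside single clusters. Retnla was lower in WT_UV than in WT_Ctrl in 8 of 8 macrophage clusters, at folds of 0.0620 to 0.402, and lower in RP_UV than in WT_UV in 8 of 8, at folds of 0.0169 to 0.701. In cluster 10, led by Ms4a7, Pf4 and C1qb, it went from 4423 UPM to 531 and 8.98. The exception to a 2-fold difference was cluster 18, with 3067, 409 and 287 UPM, where 120 of the 121 UMIs of RP_UV lay in the 1 cell named above. Clusters were made from all of these cells, so this is a description by cluster and not an independent test.

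**Figure D2:**
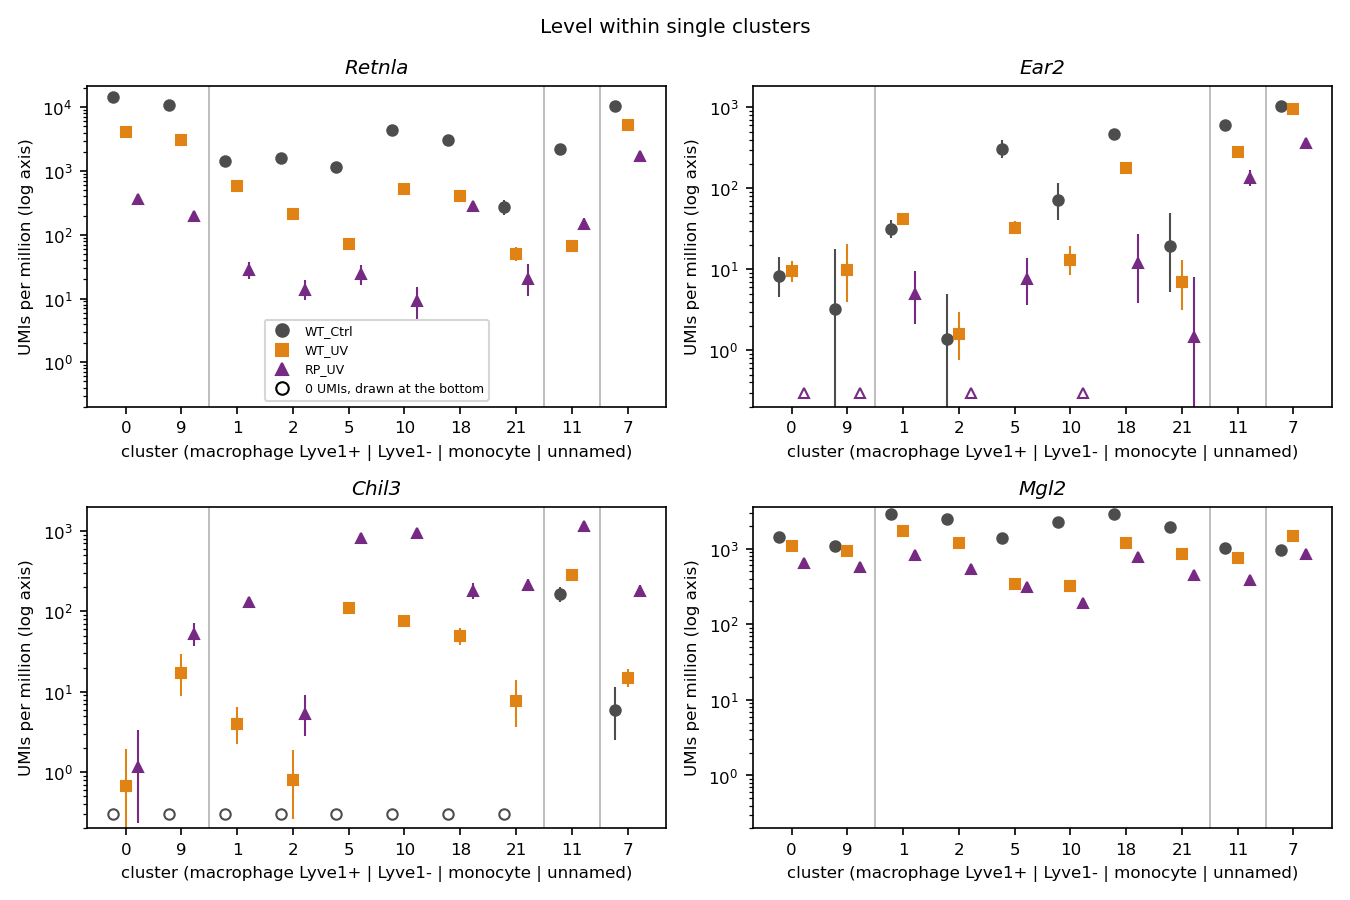
Level of Retnla, Ear2, Chil3 and Mgl2 in UPM on a log axis within the 2 macrophage clusters with Lyve1 (0 and 9), the 6 without (1, 2, 5, 10, 18 and 21), the monocyte cluster (11) and an unnamed myeloid cluster (7); bars are 95% Poisson intervals and open symbols at the bottom stand for 0 UMIs. Retnla steps down from WT_Ctrl to WT_UV to RP_UV in all 8 macrophage clusters, and Chil3 is at 0 UMIs in all 8 in WT_Ctrl.

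Monocytes also carried less Retnla after UVB, but without the further step down in RP_UV. WT_Ctrl had 2245 UPM (2118 to 2377), WT_UV 65.9 (57.8 to 74.8) and RP_UV 147 (117 to 182). WT_UV was 34.1-fold lower than WT_Ctrl, and RP_UV was 2.23-fold higher than WT_UV (1.71 to 2.87). In WT_Ctrl 97.9% of the 1175 UMIs lay in 11 of the 101 cells, and the median positive cell held 1.5, so few cells carried the WT_Ctrl level. The RP_UV value rested on 83 UMIs in 5 cells, 44 of them in 1 cell, and the fold to WT_UV was 1.43 without the cell with most UMIs in each library. Few monocytes were positive in any library, with thinned shares of 17.4%, 5.90% and 2.17%, and the intervals of the last 2 overlapped those of keratinocytes. In dendritic cells the level was 182, 26.9 and 17.5 UPM and the thinned share 7.48%, 2.62% and 2.28%, at or near the background of T cells in the first 2 libraries.

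The counts of all 6 genes past a 2-fold difference in macrophages of both classes are given beside those of all genes. In WT_UV over WT_Ctrl, 1 of 5 genes with enough UMIs was higher (Chil3) and 4 lower (Retnla, Ear2, Clec4b1 and Mgl2), on the ratio of UPM, where 3.37% of all 7943 genes with enough UMIs were higher and 1.12% lower. Ear2 lay at the limit, at a ratio of 0.492 and a log2 fold of -0.99 after 1 UPM was added to each level. In RP_UV over WT_UV, 1 was higher and 3 lower, with Mgl2 inside 2-fold, beside 1.4% and 3.17% of all genes. In RP_UV over WT_Ctrl, 1 was higher and 4 lower, beside 5.25% and 4.84%. The median log2 fold was -1.10 over the 5 genes and 0.04 over all genes in the first of these, -1.48 and -0.03 in the second, and -3.45 and 0.03 in the third. Because these values chose the genes, nothing is read from the counts. Arg1 had too few UMIs to enter them. All comparisons share libraries with one another.

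**Figure D3:**
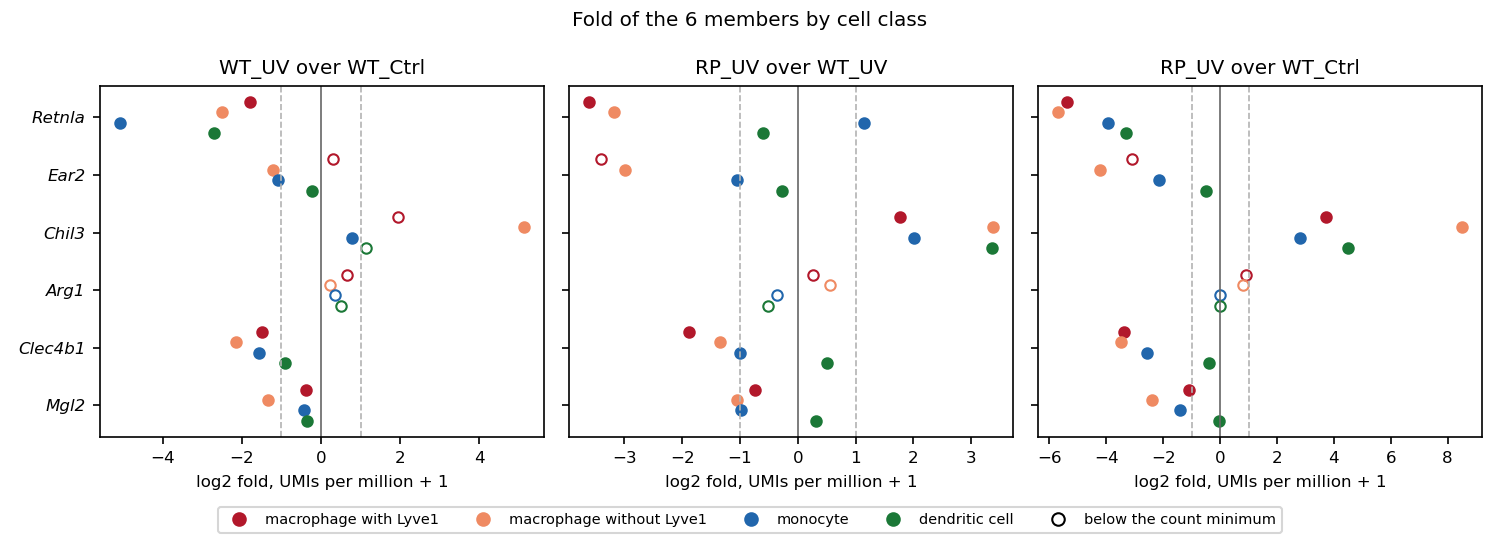
Log2 fold of the 6 genes in 4 cell classes for WT_UV over WT_Ctrl, RP_UV over WT_UV and RP_UV over WT_Ctrl, on levels in UPM with 1 added; open symbols are genes under the count minimum and dashed lines mark 2-fold. Retnla and Clec4b1 lie left of 0 in both macrophage classes in all 3 panels and Chil3 to the right, with Chil3 over WT_Ctrl macrophages set by the added 1 because that class held 0 UMIs; Retnla in monocytes lies right of 0 in RP_UV over WT_UV.

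Chil3 showed the opposite pattern: no UMI was found in macrophages without UVB, some macrophages carried it in WT_UV and many more in RP_UV. In macrophages without Lyve1, WT_Ctrl had 0 UMIs, WT_UV 33.8 UPM (31.2 to 36.6) and RP_UV 360 UPM (347 to 374). In macrophages with Lyve1 it was 0, 2.87 and 12.3 UPM. The level with Lyve1 in RP_UV lay at that of keratinocytes, 13.6 UPM (11.2 to 16.4), but was uneven. Of its 41 UMIs 38 lay in cluster 9, at 52.5 UPM (37.2 to 72.1). Cluster 9 had a macrophage score of 3.46 and next a neutrophil score of 1.88. It was shallow, at 0.463 of the median UMIs per cell of the libraries. The part of neutrophil RNA in these UMIs was not tested. Against a floor of 3 UMIs in the WT_Ctrl library, WT_UV was at least 50.5-fold higher and RP_UV at least 538-fold higher in macrophages without Lyve1. With classes made from marker UMIs, in filtered cells or all barcodes, Chil3 fell under the count minimum in WT_UV over WT_Ctrl and was not called. With the classes made from clusters, RP_UV was 10.6-fold higher than WT_UV in macrophages without Lyve1 (9.76 to 11.6).

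The thinned share of Chil3-positive macrophages without Lyve1 was 0 of 1025 cells, which allows a share of cells with a UMI of up to 0.293% (3 cells of the total), then 5.09% (4.05 to 6.37) and 22.1% (19.9 to 24.4). Without thinning, the shares were 0%, 12.1% and 26.7%, and no single cell held more than 3.24% of the UMIs. Keratinocytes gave thinned shares of 0%, 0.237% and 0.679%. T cells gave 0%, 0.149% and, in RP_UV, 12.5% of only 48 cells (5.86 to 24.7), with 184 UPM, or 96.0 without the 1 cell that held 23 of the 48 UMIs. Within macrophages 2 clusters carried most Chil3. Cluster 5, led by Cxcl2, Ms4a7, C3ar1 and Il1b, had 0, 110 and 811 UPM with thinned shares of 0%, 14.7% and 43.4%. Cluster 10 had 0, 75.9 and 932 UPM with 0%, 11.3% and 53.2%. The next score of cluster 5 was for neutrophils, 1.40 beside a macrophage score of 3.24. That of cluster 10 was for monocytes, 0.602 beside 3.64. These 2 clusters held 54 and 72 cells in WT_Ctrl, so the share of 0 there rests on few cells. In RP_UV over WT_UV the gene was higher in 6 of 6 macrophage clusters with enough UMIs, at folds of 3.09 to 33.1.

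Of the 4 classes compared, monocytes alone held Chil3 in every library, at 164 UPM (131 to 203), 285 (268 to 303) and 1151 (1064 to 1243). RP_UV monocytes had the highest Chil3 of any named class and library. The folds were 1.74 for WT_UV over WT_Ctrl, inside 2-fold, and 4.03 (3.65 to 4.45) for RP_UV over WT_UV. Thinned shares were 17.4%, 19.2% and 45.7%. The libraries held 99, 1903 and 4288 Chil3 UMIs in all, of which monocytes gave 86.9%, 54.2% and 15.2% and macrophages without Lyve1 0, 32.4% and 67.0%. Markers of other myeloid cells moved with these values: the summed neutrophil panel in macrophages was 143, 121 and 385 UPM, with 4, 1 and 0 of its 7 markers at 0, and in monocytes 43.9, 59.5 and 1759 UPM. The macrophage panel in monocytes was 4257, 5284 and 9489 UPM. Their part in the result was not tested. Neutrophils themselves held Chil3 at 0, 94.4 and 231 UPM, below the monocyte level in each library, and numbered 28, 117 and 578 cells.

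Retnla and Chil3 were seldom found in the same macrophage. After thinning, 3 of 1872 macrophages in WT_UV and 2 of 1962 in RP_UV held a UMI of both, where independent draws at the same shares would give 19.5 and 24.5. Retnla lay mainly with Lyve1 and Chil3 without it, so the classes were also counted apart. With Lyve1, WT_UV had 2 such cells against 1.38 and RP_UV 0 against 2.08. Without Lyve1 the counts were 1 against 8.70 in WT_UV and 2 against 5.52 in RP_UV. By contrast, Retnla and Ear2 were found together in 38 macrophages of WT_Ctrl and 17 of WT_UV, against 31.4 and 11.7. Without Lyve1 these counts were 34 against 19.3 and 15 against 5.03. With Lyve1 they were 4 against 3.26 and 2 against 2.06. These counts carry no test, since the cells of a library are not replicates.

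Among the named classes, Ear2 was highest in monocytes and type 2 dendritic cells, and it was low in macrophages. Dendritic cells held 38.7%, 35.3% and 46.7% of all Ear2 UMIs, the unnamed cluster 7 described further on 28.7% to 31.6%, and monocytes 7.08%, 8.33% and 7.80%. In macrophages without Lyve1, WT_Ctrl had 73.0 UPM (65.3 to 81.3), WT_UV 30.8 (28.3 to 33.4) and RP_UV 3.01 (1.93 to 4.48). Keratinocytes in the same libraries gave 28.2, 44.2 and 1.08 UPM and T cells 21.4, 6.84 and 0. The WT_UV level thus lay below that of keratinocytes, of whose 313 UMIs 112 were in 1 cell (28.4 UPM without it), and above that of T cells. The thinned shares in macrophages without Lyve1 were 6.63%, 2.94% and 0.229%, against 1.91%, 1.90% and 0.113% in keratinocytes and 1.86%, 0.892% and 0 of 48 cells in T cells, and the unthinned 8.93%, 7.06% and 0.948%. In macrophages with Lyve1 it stood at 7.55, 9.57 and 0 UPM, under the keratinocyte level in each library. Over both classes WT_UV was 2.03-fold lower than WT_Ctrl (1.77 to 2.32), and RP_UV 12.3-fold lower than WT_UV (8.18 to 19.3) on 24 UMIs. The WT_UV difference was not uniform: 3 of 5 clusters were lower and 2 higher, at folds of 0.106 to 1.34. In RP_UV all 5 were lower than in WT_UV. The WT_UV difference was no longer past 2-fold under 9 of 16 alternatives over both classes and under 8 of 16 without Lyve1.

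In monocytes Ear2 was lower in both UVB libraries, at 609 UPM (544 to 680), 284 (267 to 302) and 136 (107 to 170), with thinned shares of 39.1%, 16.2% and 12.0%. Type 2 dendritic cells held 530 UPM (505 to 556), 485 (471 to 500) and 335 (305 to 367). Their thinned shares were 33.1%, 36.9% and 38.1%, with overlapping intervals. Over all dendritic cells the folds were 0.859, 0.830 and 0.713 for the 3 comparisons, each inside 2-fold. RP_UV had fewer dendritic cells, 233 against 611 in WT_UV. In the sum of all cells Ear2 stood at 175, 191 and 33.9 UPM, a value in which the number of cells of each class and the RNA per cell cannot be told apart.

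**Figure D4:**
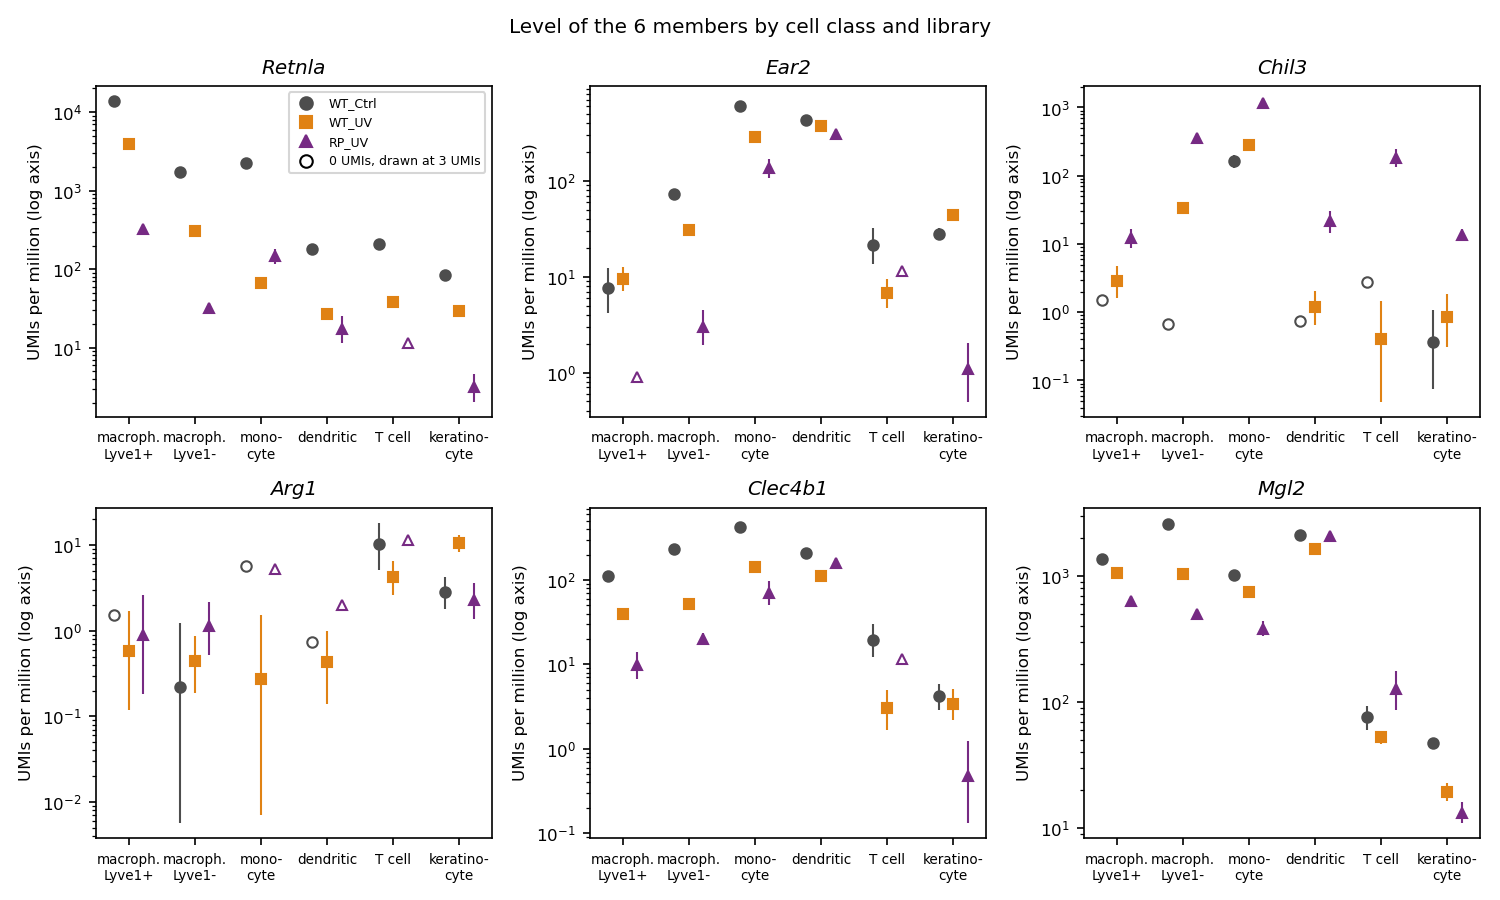
Level of the 6 genes in UPM on a log axis in macrophages with (Lyve1+) and without (Lyve1-) Lyve1, monocytes, dendritic cells, T cells and keratinocytes; bars are 95% Poisson intervals and open symbols are 0 UMIs drawn at the level of 3 UMIs. Retnla is highest in macrophages with Lyve1, Chil3 in monocytes and in macrophages without Lyve1 of RP_UV, and Ear2 in monocytes and dendritic cells, while Arg1 stays under 11 UPM throughout.

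Clec4b1 and Mgl2, the 2 lectins, were lower after UVB in macrophages and stayed inside 2-fold in dendritic cells. Mgl2 in macrophages with Lyve1 was also inside 2-fold in WT_UV over WT_Ctrl and in RP_UV over WT_UV. For Clec4b1 in macrophages of both classes, WT_Ctrl had 196 UPM (185 to 207), WT_UV 49.1 (46.3 to 52.0) and RP_UV 17.0 (14.6 to 19.5). WT_UV was 3.99-fold lower than WT_Ctrl and RP_UV 2.89-fold lower than WT_UV. The gene was lower in 8 of 8 clusters in each of these steps, at folds of 0.115 to 0.439 and 0.160 to 0.759. In monocytes it was 420, 142 and 70.7 UPM. In dendritic cells it was 211 (197 to 226), 113 (107 to 119) and 161 (141 to 182), and all 3 folds lay inside 2-fold. T cells and keratinocytes held at most 19.6 UPM. Thinned shares in macrophages were 27.9%, 10.4% and 3.67%, and unthinned 39.5%, 31.1% and 6.70%.

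Mgl2 was still found in most macrophages of every library. The thinned share of positive macrophages was 91.5%, 67.3% and 52.4%, and the unthinned share 92.8%, 85.2% and 67.0%. Its level stood at 2618 UPM (2571 to 2666), 1034 (1020 to 1049) and 500.1 (485 to 516) without Lyve1, and at 1366 (1315 to 1418), 1057 (1030 to 1086) and 634 (607 to 662) with Lyve1. The WT_Ctrl level was higher without Lyve1 than with it, the reverse of Retnla, while the 2 classes were near each other in WT_UV. Over both classes WT_UV was 2.15-fold lower than WT_Ctrl and RP_UV 1.93-fold lower than WT_UV, the latter inside 2-fold. The WT_UV difference was no longer past 2-fold under 5 of 16 alternatives. With Lyve1 alone the log2 fold of WT_UV over WT_Ctrl was -0.37, inside 2-fold. It ranged from -1.08 to 0.04 over the 16 alternatives. All 8 clusters were lower in each step, at folds of 0.143 to 0.841 and 0.454 to 0.906. Dendritic cells held 2107, 1657 and 2070 UPM, and RP_UV to WT_Ctrl was 0.982 (0.942 to 1.02) there. Within them Mgl2 belonged to type 2 cells, at 2608, 2091 and 2211 UPM, and not to type 1 cells, at 270, 261 and 220.

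Counts in the smaller classes are set beside their own backgrounds. In macrophages with Lyve1, 0 of 3 genes with enough UMIs were higher and 2 lower in WT_UV over WT_Ctrl (1.89% and 1.33% of all genes), and 1 of 4 higher and 2 lower in RP_UV over WT_UV (2.89% and 3.76%). In RP_UV over WT_Ctrl 1 of 4 was higher and 3 lower there (4.47% and 4.22%). In macrophages without Lyve1, 1 of 5 was higher and 4 lower in each of the 3 comparisons, beside 4.08% and 1.54% in the first, 1.38% and 3.75% in the second and 6.45% and 6.06% in RP_UV over WT_Ctrl. Of these, Ear2 in the first was lost under 8 of 16 alternatives, Chil3 in the first under 2, Mgl2 in the first under 1 and Mgl2 in the second under 6, where its log2 fold reached -0.26 without integration. In monocytes, 0 of 5 were higher and 3 lower in WT_UV over WT_Ctrl (8.66% and 4.44%), and 2 higher and 2 lower in RP_UV over WT_UV (6.72% and 7.23%). RP_UV over WT_Ctrl gave 1 of 5 higher and 4 lower in monocytes (10.9% and 6.06%). In dendritic cells, 0 of 4 were higher and 1 lower (Retnla, at background) in the first (3.36% and 1.66%), and 1 of 5 higher and 0 lower in the second (4.14% and 3.57%). RP_UV over WT_Ctrl gave 1 of 5 higher and 1 lower in dendritic cells (8.05% and 5.54%). The higher one of the second was Chil3, at 1.20 and 21.5 UPM on 14 and 32 UMIs.

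Arg1, often the first gene named for this state, was scarce in these macrophages. They held 1 UMI in WT_Ctrl, 11 in WT_UV and 12 in RP_UV, or 0.155, 0.469 and 1.06 UPM. All of these levels lay under those of keratinocytes, 2.83, 10.5 and 2.29 UPM. The libraries together held 220 Arg1 UMIs in 100 cells, of which 52.7% were in 38 keratinocytes. Cluster 27 of the keratinocytes held 14, 62 and 4 of these UMIs, in 7, 5 and 2 cells. The unnamed cluster 7, whose best panel is that of macrophages, held 25 UMIs in 5 WT_UV cells and 0 in the other libraries, and the log2 fold of Arg1 in WT_UV over WT_Ctrl went from 0.35 to 1.01 when unnamed clusters were put under their best panel. T cell clusters held 11 and 21 UMIs in WT_Ctrl and WT_UV, in 8 and 15 cells. Of these, 7 of 8 and 14 of 15 also held a UMI of Gata3, Il1rl1 or Il13, genes of group 2 innate lymphoid cells and of type 2 helper T cells, against 35.1% and 58.9% of the T cells without Arg1. These cells were also deeper, with medians of 3476 and 7343 UMIs against 2413 and 5850.5.

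A further 229, 223 and 132 cells formed cluster 7, which was left unnamed because its macrophage score of 1.81 led its score for type 2 dendritic cells by less than 0.5 and 0 macrophage markers were among its 10 leading genes. It was led by Lyz1, Fn1 and Mmp12. In WT_Ctrl and WT_UV it held more Ear2 than any named class, and the 3 levels were 1044 UPM (990.2 to 1099), 950.0 (920 to 981) and 360 (319 to 404), with thinned shares of 72.4%, 66.1% and 33.6%. Retnla stood at 10460 UPM, 5172 and 1694. With 4.31%, 4.27% and 2.17% of the cells it held 26.4%, 39.4% and 45.4% of all Retnla UMIs. Mgl2 was 970 (918 to 1023), 1489 (1451 to 1528) and 849 (786 to 916) UPM and so was highest in WT_UV, unlike in the macrophage classes. Chil3 was 5.87, 14.9 and 179 UPM.

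The upstream pathway was described from a list of 10 genes of interleukin-4 and interleukin-13 signalling, of which 8 had enough UMIs in macrophages. In WT_UV over WT_Ctrl only Il4ra was past 2-fold over both classes. By class it was past 2-fold without Lyve1 (1 of 8 genes), while with Lyve1 0 of 7 genes were. Il4ra stood at 63.2, 146 and 293 UPM, a 2.32-fold difference (2.09 to 2.57) and then one just inside 2-fold. In RP_UV over WT_UV it was past 2-fold in each class alone, at 2.02 with Lyve1 and 2.05 without, and no other gene of the list was past it. The median log2 folds of the list were 0.11 and -0.25. Stat6, which carries the signal to the nucleus, was at 69.9, 65.6 and 65.2 UPM. The library with the most Il4ra had the least Retnla in macrophages. The cytokine transcripts were scarce in macrophages, with Il13 at 0, 24 and 3 UMIs and Il4 at 25, 55 and 29.

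Among 17 other alternative activation genes, 10 had enough UMIs in WT_UV over WT_Ctrl and 11 in RP_UV over WT_UV, of which 2 and 1 were past 2-fold. In RP_UV over WT_Ctrl 6 of 11 were, with Tgm2, Trem2 and Kdm6b higher and Ccl24, Cd36 and Igf1 lower. Of all genes, 3.37% were higher and 1.12% lower in WT_UV over WT_Ctrl, and 1.4% and 3.17% in RP_UV over WT_UV. In RP_UV over WT_Ctrl the shares were 5.25% and 4.84%. These shares apply to each list counted over both macrophage classes. By class, in WT_UV over WT_Ctrl 0 of 10 were past 2-fold with Lyve1 (1.89% and 1.33% of all genes). Without Lyve1, 2 of 11 were higher (Tgm2 and Kdm6b) and 2 lower (Ccl24 and Cd36), beside 4.08% and 1.54%. In RP_UV over WT_UV 1 of 10 was higher and 3 lower with Lyve1 (2.89% and 3.76%). Without Lyve1, 1 of 11 was higher and 1 lower (1.38% and 3.75%). Ccl24, a chemokine for eosinophils, was lower at 480 UPM in WT_Ctrl and 189 in WT_UV, a fold of 0.395, and stayed at 172 in RP_UV. Kdm6b, a histone H3 lysine demethylase, was higher at 25.8 and 88.3 UPM, a fold of 3.42. Igf1, a growth factor, was lower in RP_UV than in WT_UV, at 372 against 745 UPM, a fold of 0.499. The mannose receptor Mrc1 stood at 3324, 3545 and 3019 UPM and the haemoglobin receptor Cd163 at 912, 889 and 738 and both were inside 2-fold in all 3 comparisons. The list's median log2 fold was -0.20 and then -0.27, beside 0.04 and -0.03 over all genes. In RP_UV over WT_Ctrl it was -0.31 beside 0.03.

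Of 12 transcription factors of the programme, 10 had enough UMIs in WT_UV over WT_Ctrl and none passed 2-fold over both classes pooled. In macrophages without Lyve1 alone, 4 of 10 were higher (Cebpb, Hif1a, Klf4 and Egr2), at folds of 2.01 to 2.27, beside 4.08% of all genes, and with Lyve1 alone 0 of 10 were. In RP_UV over WT_UV 9 had enough and Irf4 was lower, at 12.6 against 36.8 UPM, a fold of 0.343. Irf4 in WT_Ctrl was 35.7 UPM. Cebpb, a C/EBP factor, stood at 221, 376 and 526 UPM, over both classes, inside 2-fold at each step and 2.38-fold higher in RP_UV than in WT_Ctrl. Of 10 genes of arginine use, 5 had enough UMIs. Odc1, which makes putrescine from ornithine, was higher in WT_UV at 28.4 against 12.7 UPM. By class it was past 2-fold there without Lyve1, while with Lyve1 0 of 5 genes were. Srm, which makes spermidine, was higher in RP_UV than in WT_UV at 32.1 against 13.7. In that step Odc1 and Srm were past 2-fold with Lyve1 and Srm alone without it. Nos2, the enzyme that competes with arginase for arginine, had 0 UMIs in macrophages of all 3 libraries.

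Of 26 paralogs, 8 had enough UMIs in WT_UV over WT_Ctrl, and most near copies of the 6 genes were at or near 0. Chil4, Retnlb, Ear6, Ear10 and Ear14 had 0 UMIs in macrophages of every library, Ear1 had 0, 1 and 0, and Clec4b2 had 2, 7 and 2. Retnlg, a relative of Retnla and a marker of neutrophils, had 1, 0 and 99 UMIs. Reads that could not be told apart between such copies are dropped by the counting, which makes the levels of Ear2 and Chil3 uncertain. In WT_UV over WT_Ctrl, 3 of these 8 were higher, beside 3.37% of all genes, and 5 lay inside 2-fold. The 3 were C-type lectins of the same chromosome region as Clec4b1, which was lower. In RP_UV over WT_UV, where Clec4b1 was lower again, Clec4d and Clec4e were higher and Clec4n lay inside 2-fold. Clec4n (Dectin-2) stood at 54.7, 195 and 205 UPM, Clec4d at 3.40, 22.2 and 92.3, and Clec4e (Mincle) at 0.619, 15.5 and 31.1. The folds of WT_UV over WT_Ctrl were 3.56, 6.52 and 25.1 (9.71 to 92.6, on 4 UMIs in WT_Ctrl). Clec10a, the closest relative of Mgl2, was 1558, 983 and 926 UPM, inside 2-fold at each step.

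Across 40 sums of a class and a library with at least 20 cells, the genes most like each of the 6 among 8398 were named by Pearson's r of their log2 levels. For Retnla they were Pou2f2 (0.78), Ticam2 (0.73) and Gbp2b (0.72). For Ear2 they were Tnip3 (0.89), Ms4a4c (0.86) and Clec4b1 (0.83), and for Chil3 Gm5150 (0.78), Apoc2 (0.75) and Ptgs2 (0.74). For Clec4b1 they were Tifab (0.89), Rtl5 (0.88) and Slamf8 (0.88), and for Mgl2 Cd209a (0.94), Tep1 (0.93) and Ly86 (0.93). Arg1 did not reach 50 UPM in any sum. Among the 6 genes themselves, Mgl2 and Clec4b1 had an r of 0.84, Retnla and Ear2 0.39 and Retnla and Chil3 -0.16. The sums share libraries, depth and free RNA, and Ptgs2 in RP_UV includes reads of the transgene as far as they map, so these values are descriptions with no p.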

How the data were processed

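Cells were prepared with 10x Genomics Chromium 3′ chemistry from CD45+ enriched dorsal skin, and the authors deposited filtered matrices of raw UMI counts, made by Cell Ranger 6.1.1 (file header) against mm10 (labels). The members, gene lists and marker panels were chosen with earlier results of these data known. Cells with under 10% mitochondrial UMIs, more than 200 genes and fewer than 4000 genes (6000 in WT_UV) were kept, following the study, from 5977, 6149 and 7240 deposited barcodes. Seurat 5.3.0 with sctransform 0.4.2 (R 4.3.3) integrated the libraries on 3000 features and 30 dimensions without the 6 genes and gave 47 clusters at resolution 2. A cluster took the name of 1 of 20 marker panels where its score was at least 1, led by 0.5, 3 of its markers were found in 10% of cells and its 10 leading genes held more of its own markers than of another panel's (or 0 of either). A lead under 0.5 between monocytes and macrophages passed where 3 own markers and 0 of the other's were among these 10, as in the monocyte cluster. Clusters with over 1.5 times the usual depth and a score of 2 for another lineage, and clusters of very low depth with 0 own leading markers, stayed unnamed. The limits and the exception were set after the clusters had been seen. The other 8 clusters, with 9.93%, 15.1% and 8.52% of cells, stayed unnamed. Raw counts were summed per class and library (Python 3.11.15, scanpy 1.11.5, scipy 1.17.1, numpy 2.4.6, pandas 2.3.3).

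Intervals are exact Poisson for UMIs, conditional binomial for folds and Wilson for shares, all at 95%. A gene was tested with at least 10 UPM in 1 library and 20 UMIs over both, and called where the ratio of UPM passed 2-fold; log2 folds, medians and ranks are on UPM plus 1. A group at 0 UMIs was set to a floor of 3 UMIs in that library. Besides the 6 genes, the text names up to 4 genes per list and direction past 2-fold with the largest fold in macrophages and, for each of the 6, the 3 genes with the highest correlation; Stat6, Mrc1, Cd163, Cebpb, Clec10a, Tgm2, Trem2, Cd36, Hif1a, Klf4, Egr2, Il4, Il13, Nos2 and the paralogs at or near 0 UMIs were added after their values were seen. Scrublet called 74 cells in WT_Ctrl and 1 in each of the others, so it had not worked there, and doublets were kept, with the highest 5% of scores left out as an alternative. Only the folds and their intervals were checked on simulated counts. These were Poisson counts with known folds, the model that the intervals assume. Clustering, naming, thinning and the gathering of UMIs in single cells were not simulated. Promoters are RefSeq, GRCm38.p6.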

Additional observations from a re-analysis of the deposited data

Results flagged for a closer look

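Retnla differed between cell classes in RP_UV over WT_UV, with a log2 fold of -3.22 in macrophages and 1.14 in monocytes. The difference was not tested. The monocyte value rested on 83 UMIs in RP_UV, 44 of them in 1 cell.

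Some values lay in classes that the comparisons did not use, above the level in WT_Ctrl. Chil3 stood at 184 UPM in T cells of RP_UV, from 48 UMIs in 7 of 94 cells with 23 in 1 cell, at 231 UPM in neutrophils of RP_UV and 94.4 in those of WT_UV, and, in RP_UV, at 90.4 in Schwann cells or melanocytes, 16.8 in fibroblasts and 13.6 in keratinocytes. A single cell held 28 of the 42 Chil3 UMIs in Schwann cells or melanocytes, 10 of 26 in fibroblasts and 36 of 113 in keratinocytes. In neutrophils it held 16 of 224 in RP_UV and 28 of 76 in WT_UV. Ear2 stood at 110 UPM in Langerhans cells of WT_UV, with 86 of 186 UMIs in 1 cell. Arg1 stood at 10.5 UPM in keratinocytes of WT_UV, with 37 of 74 UMIs in 1 cell, against 2.83 in WT_Ctrl. None of these was tested.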

How the results depend on the processing

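Of 864 values of single genes under the alternatives, 518 lay inside the counting interval of the main fold and 346 outside it. Of those past 2-fold, 0 turned direction. The interval is of the ratio without added UPM, while the values have UPM added. A value of a gene at or near 0 UMIs can therefore lie outside without having moved. Of 96 counts of genes past 2-fold, 86 stayed within 1.5 times and 10 did not. The count of genes higher in WT_UV over WT_Ctrl (1) was 0 with classes from marker UMIs, both with filtered cells and with all deposited barcodes, where Chil3 fell under the count minimum. It was 2 without the filter on low values, as it also was in RP_UV over WT_UV and in RP_UV over WT_Ctrl, where Arg1 joined. The count of genes lower in WT_UV over WT_Ctrl (4) was 2 with the limit of 4000 genes applied to all libraries, with a mean over cells and with thinned cells. It was also 2 in 2 alternatives chosen after seeing the data, unnamed clusters under their best panel and cluster levels weighted as in WT_Ctrl. Ear2 and Mgl2 were lost each time. Over the 16 alternatives, Retnla ranged from -2.31 to -1.74 on the log2 scale in WT_UV over WT_Ctrl, from -3.65 to -2.35 in RP_UV over WT_UV and from -5.61 to -4.61 in RP_UV over WT_Ctrl. Chil3 in RP_UV over WT_UV ranged from 1.59 to 4.86. Ear2 kept its call in WT_UV over WT_Ctrl in 7 of 16 (-1.35 to -0.54) and Mgl2 in 11 of 16 (-1.33 to -0.84).

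All genes past 2-fold higher in WT_UV over WT_Ctrl numbered 268, 130 with a pseudocount of 10, 156 with clusters weighted as in WT_Ctrl and 3708 without the filter on low values; those lower numbered 89, 34, 54 and 1772, and 162 with classes from marker UMIs. In RP_UV over WT_UV, 111 were higher and 251 lower, 47 and 75 with a pseudocount of 10, 196 and 332 with thinned cells, 187 and 344 with the limit of 4000 genes, and 2583 and 3242 without the filter. No paired analysis was possible because each group holds 1 library. With 1 animal per group, differences between animals, and for WT_UV the sequencing run, cannot be told apart from the group. Arg1 had too few UMIs in macrophages for a call.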
